A study of Homo sapiens with 24 samples.

Results

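The transcripts of resting HEK293 cells that had been given a plasmid for wild type SIRT6 were compared with those of resting cells given the plasmid without an insert. The members are the arrays labelled with these plasmids and no cytokine, 3 of SIRT6 and 3 of the empty vector, 6 of the 24 arrays in the series. HEK293 is a line of human embryonic kidney cells. The series also holds control cells that were put through transfection with no DNA (no-DNA cells) and cells given the H133W mutant of SIRT6, whose deacetylase is inactive, and each of the 4 kinds of cell without and with tumour necrosis factor α (TNFα), 3 arrays a group, which the labels call biological replicates. All transfections were transient. SIRT6 and H133W cells received pCDNA3 carrying the Flag-tagged wild type or mutant protein, and empty vector cells received pCDNA3 alone, all with the reagent FuGENE HD for 24 h. Resting cells of every group were then kept with the carrier solution of the cytokine, and stimulated cells with 10 ng/ml TNFα, for 4 h by the study's methods and for 1 h by the design text of the series. The cells of a well were lysed together, so each value is an average over cells that did and did not take up plasmid, and fewer responding cells cannot be told apart from a smaller response per cell.

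SIRT6 is a nuclear NAD+-dependent enzyme that removes acetyl groups from lysines of histone H3, and it is known for silencing genes at chromatin and for roles in glycolysis and DNA repair. Cells that meet stress slow translation by phosphorylating the factor eIF2α, and the transcription factor ATF4 is then made and switches on a set of genes, a route called the integrated stress response. ATF3, CHAC1 and PPP1R15A, which appear below, are known members of that set.

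Transcripts were measured with an Affymetrix whole-genome array, on which a gene is read by 1 or more probe sets. Values are the authors' log2 expression values, so that a difference of 1 is a doubling. A probe set was called when its adjusted p in limma was under 0.05 and its fold change over 1.5. Of 54675 probe sets 19 were called higher in SIRT6 cells (0.0348%) and 0 lower (0%). At an unadjusted p under 0.05, 1835 were higher and 1211 lower. Many of 54675 probe sets meet that threshold where nothing differs, so the 1835 and 1211 are not read as effects. A plain linear model called 18 higher and 0 lower. The rises of the 19 were small, between 1.5- and 2.02-fold. Of the 19, 17 read a single gene, and these make up 14 genes: MAFF, LINC01554, NFAT5, SKIL, PVT1, CHAC1, DTNA, H2AC6, KDM6B, DUSP8, PHF21B, PSPC1, PPP1R15A and ATF3. The other 2 read several genes each and are not named. On all 19 the 3 SIRT6 arrays lay above the 3 empty vector arrays, as they did on 6.25% of all probe sets, while they lay below them on 5.39%. The median difference of all probe sets was −0.0031.

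**Figure D1:**
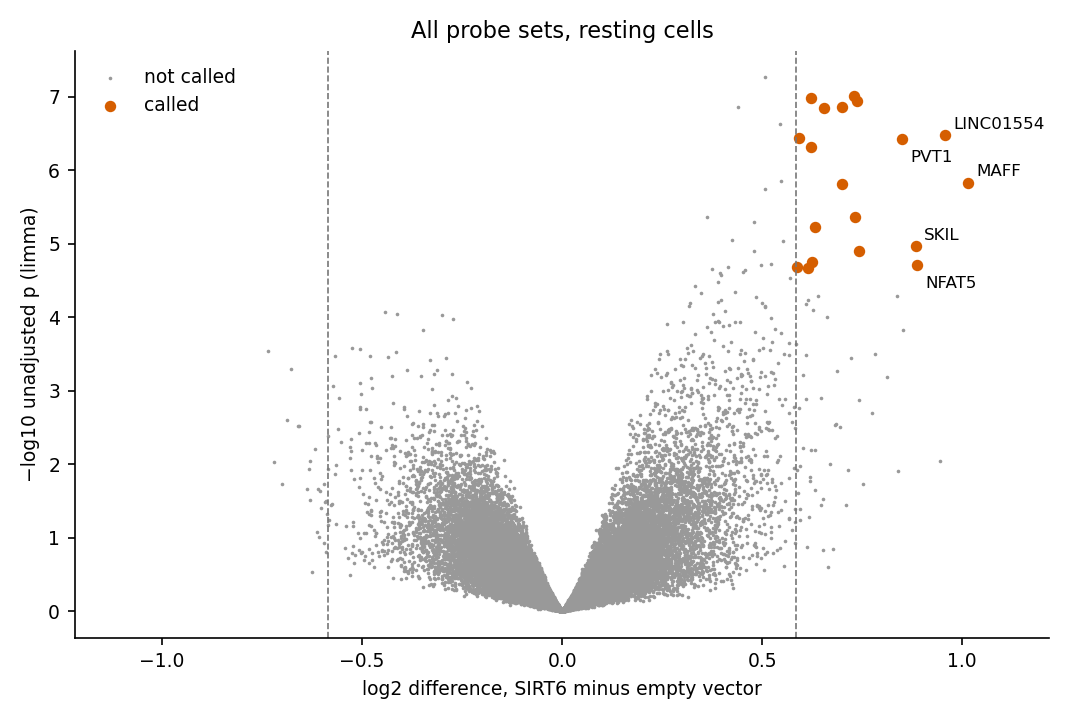
Each point is 1 of 54675 probe sets in resting cells, with the log2 difference between SIRT6 and empty vector cells on the x axis and −log10 of the unadjusted limma p on the y axis. Dashed lines mark a fold change of 1.5 in either direction. The 19 called probe sets (orange) lie on the right, and 0 lie on the left.

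Markers of this line and of other lineages were read on the brightest probe set of each gene. Of 14 genes that mark HEK293 cells, 10 lay above the median of the array on all 6 arrays, among them VIM, KRT8, KRT18, NEFL and LIN28B, while NEFM, PAX2, LHX1 and NES did not. None of the 9 measured markers of blood cells did, nor did 11 of 13 markers of fibroblasts and endothelium, with COL1A1 and COL3A1 above it. The array median, 5.32 to 5.36, is that of all probe sets. On brightest probe sets the median gene lay at 6.81 to 6.96 on the empty vector arrays. Most genes therefore pass this bar, and the count of HEK293 markers alone does not identify the line. The mean level of the blood cell markers was 3.37 to 3.48 on the empty vector arrays and 3.41 to 3.45 on the SIRT6 arrays, and none of the marker genes of any list passed the test. Empty vector replicate 2 stood apart in a measure of RNA integrity. Its 3′ probe set of β-actin exceeded the 5′ probe set by 2.05, against 1.33 to 1.76 on the other 5 arrays, and for GAPDH by 0.35 against 0.22 to 0.25. Its weight in an estimate of array quality was 0.383, against 0.732 to 1.86. Without it 12 of the 19 calls were kept. Lost were those of SKIL, NFAT5, DTNA, both KDM6B probe sets, the second of PPP1R15A and 1 probe set of several genes. Calls gained without it are given for some of the genes.

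SIRT6 itself is read by 2 probe sets and neither was called. The first had values of 7.76, 8.68 and 9.31 on the empty vector arrays and of 9.33, 9.37 and 9.31 on the SIRT6 arrays, so that the lower mean of the controls came from 2 arrays. Its difference was 0.75 (SE 0.29, adjusted p = 0.749). The second lay at 8.20, 8.45 and 8.40 with the empty vector and at 8.35, 8.49 and 8.42 with SIRT6, a difference of 0.07. Which part of the transcript the probe sets read, and whether the plasmid carries it, is not given in the sources used here, so neither checks the transfection. The paper reports that Western blots of extracts of these cells showed the SIRT6 and H133W proteins. The 15 probe sets of the other 6 sirtuins differed by −0.25 to 0.30, and none passed at an unadjusted p under 0.05.

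The starts of the called genes were searched for 12 short motifs on both strands, since the 14 genes rose together, and these sequences come before their values. RefSeq windows of 250 bases before and 50 after a start (GRCh38.p14) were found for 10 of the 14 genes, 19 windows in all. TGACGTCA, the full cAMP response element that ATF and CREB factors bind, was in windows of 4 of the 10, PPP1R15A, MAFF, DUSP8 and SKIL, and in 2.25% of all genes with a window (1.85% of 35116 windows). TGATGNAA, the core of the element for ATF4 with C/EBP factors, was in those of ATF3 and CHAC1 and in 4.46% of genes. The 10 genes had 19 windows, and all 27305 genes had 35116. The called genes thus had more windows each in which any of the 12 motifs could fall, and the shares by gene do not allow for this. The stretches with these motifs are shown to place the letters, in capitals, against each start; they lie on GRCh38.p14 at chr19:48872317-48872416 (+) for PPP1R15A, chr22:38201894-38201993 (+) for MAFF, chr11:1572314-1572413 (−) for DUSP8, chr3:170357615-170357714 (+) for SKIL, chr1:212565170-212565269 (+) for ATF3 and chr15:40953221-40953320 (+) for CHAC1.
PPP1R15A: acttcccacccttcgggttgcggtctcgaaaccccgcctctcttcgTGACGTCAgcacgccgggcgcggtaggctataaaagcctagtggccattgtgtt
MAFF: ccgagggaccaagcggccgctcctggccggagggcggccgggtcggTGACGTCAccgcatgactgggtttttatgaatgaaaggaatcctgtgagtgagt
DUSP8: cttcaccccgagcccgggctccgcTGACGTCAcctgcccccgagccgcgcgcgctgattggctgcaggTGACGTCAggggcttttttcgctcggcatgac
SKIL: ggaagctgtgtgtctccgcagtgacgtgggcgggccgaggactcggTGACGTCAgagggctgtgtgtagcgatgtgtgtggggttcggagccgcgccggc
ATF3: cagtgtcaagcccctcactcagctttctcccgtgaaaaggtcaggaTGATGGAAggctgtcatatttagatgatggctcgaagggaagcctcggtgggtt
CHAC1: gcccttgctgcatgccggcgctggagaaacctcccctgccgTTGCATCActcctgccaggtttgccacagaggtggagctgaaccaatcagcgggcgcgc

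In these stretches the motif begins 58 bases before the start for PPP1R15A and 54 before it for both MAFF and SKIL, while DUSP8 holds it 118 and 74 bases before, ATF3 191 and CHAC1 209 bases before. The capitals of CHAC1 spell the motif of the other strand. Of the other motifs, TGACGT, which is contained in TGACGTCA, was found in 5 of the 10 genes (9.64% of all genes), TGATGNAAN, the longer form of TGATGNAA, in 2 (4.45%), and ATTGCATCA, a stricter form of it, in 0 (0.293%). TGANTCA, the AP-1 element, was in 1 (9.37%), TGANNNNGC, the core of the antioxidant response element, in 6 (47.1%), the outline of an NFκB site in 5 (61.7%), CCAAT in 6 (39.7%), TATAAA in 3 (14.0%), CACGTG in 1 (8.77%) and GAANNTTC, the core of the heat shock element, in 1 (8.21%). A match is a description of the letters and not a bound site, and whether the motifs bear on the rises was not tested.

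Of the integrated stress response, 3 genes rose, ATF3, CHAC1 and PPP1R15A. ATF3 encodes a transcription factor of the ATF/CREB family that cells make under stress. Its called probe set stood at 9.19, 9.38 and 9.36 with the empty vector and at 9.92, 9.87 and 9.93 with SIRT6. The groups did not overlap, and the difference was 0.59 (SE 0.08, adjusted p = 0.00187). The other 2 probe sets of ATF3 differed by 0.43 and 0.68, with adjusted p from 0.434. The latter was called without the 3 arrays of lowest weight in the series, at 0.61 (adjusted p = 0.0016), but not without empty vector replicate 2 alone (adjusted p = 0.874). PPP1R15A encodes GADD34, the subunit that brings a phosphatase to eIF2α and so ends the block of translation. Its first probe set gave 6.90, 7.04 and 7.04 with the empty vector against 7.61, 7.63 and 7.61 with SIRT6. The second gave 6.11, 6.24 and 6.36 against 6.80, 7.0 and 6.78. The groups of both were apart, and the differences were 0.62 and 0.63, with adjusted p of 0.0011 and 0.036. CHAC1 encodes an enzyme that breaks down glutathione. It lay at 6.76, 7.24 and 7.16 on the empty vector arrays and at 7.78, 7.91 and 7.69 on the SIRT6 arrays, and the difference was 0.74 (SE 0.13, adjusted p = 0.0278). Among the controls, replicate 1 gave the lowest value of each of these 4 probe sets. Without it CHAC1 differed by 0.60 (adjusted p = 0.152), the second probe set of PPP1R15A by 0.56 (adjusted p = 0.176), the first by 0.57 (adjusted p = 0.0167) and ATF3 by 0.53 (adjusted p = 0.0244), the last 2 below the fold threshold. Without SIRT6 replicate 3 the difference of ATF3 was 0.58, under the fold threshold too.

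MAFF showed the largest difference of the called probe sets. It encodes a small MAF protein, a transcription factor that pairs with NRF2 and its relatives at antioxidant genes. Its called probe set lay at 5.43, 5.53 and 5.56 with the empty vector and at 6.47, 6.53 and 6.57 with SIRT6. The 2.02-fold rise (log2 1.02, SE 0.15, adjusted p = 0.00553) exceeded the spread within either group, whose SDs were 0.07 and 0.05. The second probe set of MAFF, at 5.78 ± 0.28 and 6.15 ± 0.13 (SD, n = 3), differed by 0.37 (adjusted p = 0.749). Without empty vector replicate 1 the first differed by 0.98 (adjusted p = 0.0561).

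Other transcription regulators rose on single probe sets, while the other probe sets of the same genes did not pass. SKIL encodes SnoN, a repressor of SMAD proteins in TGF-β signalling. Its called probe set read 6.19, 5.49 and 6.15 in the controls and 6.87, 6.80 and 6.82 in SIRT6 cells. The low control was empty vector replicate 2, and the difference of 0.88 (SE 0.15, adjusted p = 0.0258) fell to 0.66 (adjusted p = 0.0896) without it. Leaving out any 1 of the SIRT6 arrays also ended the call, with adjusted p of up to 0.136. The 4 other probe sets of SKIL differed by −0.12 to 0.36. NFAT5 encodes the factor of the response to hypertonic stress. The called probe set was dim, at 3.91, 3.62 and 3.81 against 4.74, 4.62 and 4.64, a difference of 0.89 (SE 0.16, adjusted p = 0.036). The 2 brighter probe sets of NFAT5 differed by 0.03 and 0.19 and did not pass. PHF21B encodes a PHD finger protein. It lay at 5.82, 6.02 and 6.05 and rose to 6.58, 6.58 and 6.69 (log2 0.65, SE 0.08, adjusted p = 0.0011), and its second probe set differed by 0.34. Without empty vector replicate 1 the difference of PHF21B was 0.58 (adjusted p = 0.0167), just under the fold threshold.

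Genes of chromatin and of signalling formed another group. KDM6B encodes the demethylase JMJD3, which removes methyl groups from lysine 27 of histone H3. One of its probe sets read 7.99, 7.71 and 8.19 with the empty vector and 8.60, 8.61 and 8.78 with SIRT6 (log2 0.70, SE 0.10, adjusted p = 0.00553). Another read 9.26, 9.26 and 9.48 against 9.87, 9.88 and 10.02 (log2 0.59, SE 0.11, adjusted p = 0.036). The 3 other probe sets of KDM6B differed by 0.11 to 0.38. Empty vector replicate 2 was the lowest control of the first, and without it the difference was 0.57 (adjusted p = 0.0297). Without SIRT6 replicate 3 its adjusted p was 0.0674. H2AC6, a replication-dependent histone H2A gene, lay at 8.59, 8.46 and 8.58 and at 9.24, 9.22 and 9.35 (log2 0.73, SE 0.09, adjusted p = 0.0011). DUSP8 encodes a phosphatase of the stress-activated MAP kinases. Both of its probe sets rose, one from 5.71, 5.62 and 5.72 to 6.37, 6.33 and 6.44, the other from 6.67, 6.62 and 6.64 to 7.22, 7.33 and 7.24. Their differences were 0.70 and 0.62 (adjusted p = 0.0011 and 0.00217). These 3 probe sets of H2AC6 and DUSP8 were among the 6 that stayed called when any 1 of the 6 arrays was left out.

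Noncoding transcripts and a pair of structural genes completed the list. PVT1, a long noncoding RNA made beside the MYC gene, lay at 7.04, 7.31 and 7.44 in empty vector cells and at 8.16, 8.03 and 8.14 in SIRT6 cells (log2 0.85, SE 0.11, adjusted p = 0.00187). LINC01554, another long noncoding RNA, was dim, at 3.78, 3.72 and 3.83 against 4.57, 4.79 and 4.83 (log2 0.96, SE 0.13, adjusted p = 0.00187). PSPC1 encodes a protein of paraspeckles, nuclear bodies built on a noncoding RNA. One of its 5 probe sets rose, from 7.03, 7.40 and 7.18 to 7.77, 7.83 and 7.91 (log2 0.63, SE 0.10, adjusted p = 0.0163), while the other 4 differed by 0.02 to 0.62. Of these 4, that with 0.62 was called without empty vector replicate 2, at 0.76 (adjusted p = 0.0129). DTNA encodes dystrobrevin alpha, of the complex around dystrophin. One of its 8 probe sets rose, from 4.49, 4.24 and 4.61 to 5.17, 5.14 and 5.23 (log2 0.73, SE 0.12, adjusted p = 0.013), and the other 7 differed by −0.21 to 0.46. The 2 probe sets that stand for several genes rose by 0.74 and 0.61 (adjusted p = 0.0011 and 0.036).

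**Figure D2:**
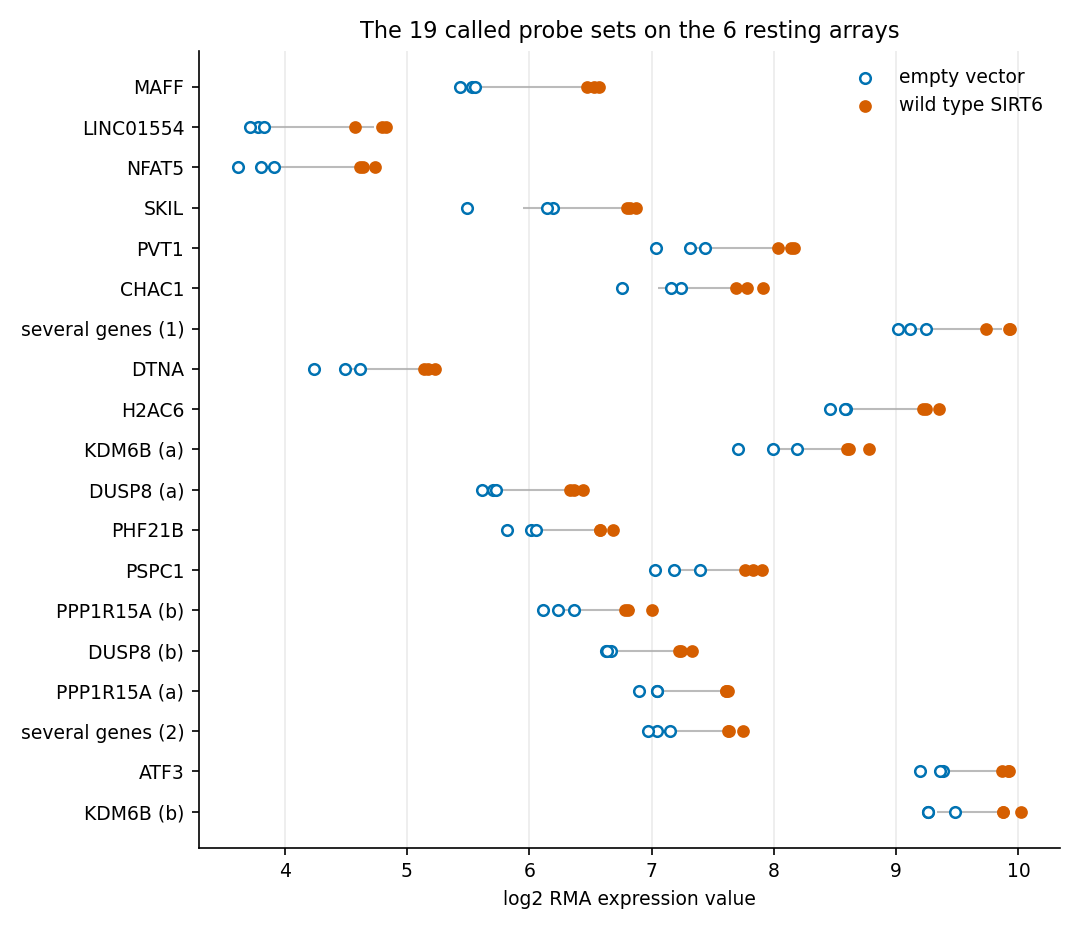
Log2 expression values (x axis) of the 19 called probe sets (rows, sorted by difference) on the 3 empty vector arrays (open circles) and the 3 SIRT6 arrays (filled circles), with a grey line between the group means. In every row the filled circles lie to the right of the open ones, and the rows run from a mean of 3.78 to a mean of 9.33 in empty vector cells. Letters a and b tell apart 2 probe sets of a gene.

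The calls depended on single arrays. Leaving out SIRT6 replicates 1, 2 and 3 kept 11, 11 and 9 of the 19, and leaving out empty vector replicates 1, 2 and 3 kept 8, 12 and 14. All 19 differences stayed positive, which was fixed beforehand, since the 3 SIRT6 arrays lay above the 3 empty vector arrays on all 19. The calls that stayed in every case were those of H2AC6, PVT1, LINC01554, both probe sets of DUSP8 and 1 probe set of several genes. The calls of NFAT5, of the second PPP1R15A probe set and of the other probe set of several genes were lost in every case. DTNA, PSPC1, CHAC1 and the second KDM6B probe set were called in 1 of the 6 cases each, with adjusted p of 0.017 to 0.0923, 0.00906 to 0.118, 0.0237 to 0.207 and 0.042 to 0.21. In a fit on the 6 arrays alone MAFF passed (adjusted p = 0.0449) and the other 18 did not (adjusted p from 0.119 to 0.422). Without the 3 arrays of lowest weight in the series, empty vector replicate 2 among them, 38 probe sets were called higher, 16 of the 19 included, and 5 lower.

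At an adjusted p under 0.05 with no limit on the fold, 39 probe sets were higher (0.0713%) and 0 lower. The 20 below 1.5-fold added 15 named genes with differences from 0.36 to 0.57. Of these, 2 belong to the ATF4 set. CTH, an enzyme of cysteine synthesis, rose by 0.45 (adjusted p = 0.0377), and SESN2, a stress-induced inhibitor of mTORC1, by 0.41 on 1 of its 2 probe sets (adjusted p = 0.036), while the brighter one differed by 0.34 (adjusted p = 0.265). DTL, which marks replication proteins for destruction, read 9.0, 9.07 and 9.11 against 9.54, 9.55 and 9.60, a rise of 0.51 (SE 0.06, adjusted p = 0.0011). SNHG17, a noncoding host of small nucleolar RNAs, rose on both of its probe sets by 0.44 and 0.36 (adjusted p = 0.0011 and 0.013). The zinc finger genes ZNF79, on 2 probe sets, and ZNF473, whose protein serves in histone mRNA processing, rose by 0.48, 0.55 and 0.57. Without empty vector replicate 2 the second of these ZNF79 probe sets and 1 further probe set of the gene were past both thresholds, at 0.59 and 0.72 (adjusted p = 0.0381 and 0.0378). CRYAB, a small heat shock protein, rose from 4.25 ± 0.05 to 4.73 ± 0.11 (SD, n = 3), by 0.48 (adjusted p = 0.0278). The other rises were those of FUT1 (0.52), SYT11 (0.50), AMOTL2 (0.46), CREB5 (0.43), POLK (0.40), TIPARP (0.39), AKNA (0.39) and RASSF1 (0.37), with adjusted p from 0.0231 to 0.0461.

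No transcript passed the test on the lower side. The smallest adjusted p of a lower probe set was 0.082, that of MARCHF6, a ubiquitin ligase of the endoplasmic reticulum, at 5.40, 5.61 and 5.34 with the empty vector and 5.11, 4.86 and 5.06 with SIRT6, a difference of −0.44. PFDN4, a prefoldin subunit, and B4GAT1, a glycosyltransferase, differed by −0.30 and −0.27 (adjusted p = 0.0841 and 0.092). CGNL1, SYNPO2 and DENND1B followed with −0.50, −0.74 and −0.57 (adjusted p of 0.158, 0.158 and 0.162). Without empty vector replicate 2 DENND1B was called lower, at −0.72 (adjusted p = 0.0454). Past a fold of 1.5 with no test, 65 probe sets were higher and 26 lower.

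Lists of genes were read on 1 probe set a gene, the brightest, beside all 19775 genes, of which 10 were called higher, with a median difference of −0.01 and 46.6% above 0. Of 50 targets of ATF4, 48 were measured, 3 were called (ATF3, CHAC1 and PPP1R15A) and CTH passed below the fold threshold. Their median was 0.11, and 40 of the 48 (83.3%) were above 0. The median level of the list was 9.90 to 10.03 on the SIRT6 arrays, inside the 9.73 to 10.08 of the empty vector arrays. The median difference of the same list was 0.15 with TNFα (45 of 48 above 0), and, in comparisons that share the empty vector arrays, 0.14 for H133W (37 of 48) and 0.16 for the empty vector against no-DNA cells (44 of 48). DDIT3, which encodes the stress factor CHOP, differed by 0.41 (adjusted p = 0.388). Genes for chaperones of the endoplasmic reticulum, which answer to other arms of the stress response of that organelle, had 0 of 19 called and a median of 0.01, and the members with the largest differences were HERPUD1 (0.17) and DNAJB9 (0.11). Of 25 heat shock genes 0 were called, with a median of 0.07, 20 above 0, and HSPA6 at 0.55 (adjusted p = 0.325). HSPA6 was called without the 3 arrays of lowest weight, at 0.63 (adjusted p = 0.0153), but not without empty vector replicate 2 alone (adjusted p = 0.418). The list of small MAF proteins and NRF2 targets had MAFF as its 1 call of 24 and a median of 0.05. That of MAP kinase phosphatases had DUSP8 of 18, that of replication-dependent histones H2AC6 of 36 and that of histone demethylases KDM6B of 25, with medians of 0.04, 0.05 and 0.03. Of 31 immediate early genes 0 were called and 24 were above 0, with a median of 0.06. KLF10 led them with 0.47 (adjusted p = 0.227).

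Lists for the pathways for which SIRT6 is known held no called gene. Since 10 of all 19775 genes were called, 0 is the usual count for lists of this size and says little about them. None of 34 glycolytic enzymes and HIF1A targets was called (median −0.01), nor any of 31 genes of DNA break repair (median 0.00), of 52 ribosomal protein genes (median −0.01) or of 24 sterol genes (median −0.01). Of 23 NFκB subunits and feedback regulators 0 were called, with a median of 0.04 and RELB at 0.50 (adjusted p = 0.777). Of 31 chemokines and cytokines 0 were called, with a median of −0.01, CXCL2 at 0.57 and CXCL8 at 0.49 (adjusted p = 0.158). Interferon genes (0 of 41, median −0.03), p53 targets (0 of 26, median 0.07) and genes of G1-S (0 of 34, median 0.05) and G2-M (0 of 32, median −0.03) held no call either. In the Hedgehog, NOTCH and WNT lists, of 23, 30 and 36 genes, 0 were called. GLI1, the transcription factor at the end of the Hedgehog pathway, differed by 0.61 (adjusted p = 0.162), and without empty vector replicate 2 it was called, at 0.77 (adjusted p = 0.0452). The lists of RNA and chromatin had 0 called of 23 histone acetylation enzymes (median −0.02), 24 paraspeckle genes (0.01), 37 splicing regulators (0.04), 12 hosts of small nucleolar RNAs (−0.02), 20 genes of RNA polymerase I (0.00) and 466 zinc finger genes (0.03). The same held for IGF and AKT signalling (24 genes, −0.02), TGF-β and SKI (26, 0.02) and the BCL2 family (18, 0.01). On the brightest probe sets, RNA hosts and zinc fingers each had 1 member, SNHG17 and ZNF473, that passed below the fold threshold. Genes called on another probe set than the brightest do not count here: SKIL in the TGF-β list was read at 0.12 and PSPC1 in the paraspeckle list at 0.02. ZNF79 passed below the fold threshold on other probe sets and was not called. In the zinc finger list it was read at 0.61 (adjusted p = 0.0715).

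**Figure D3:**
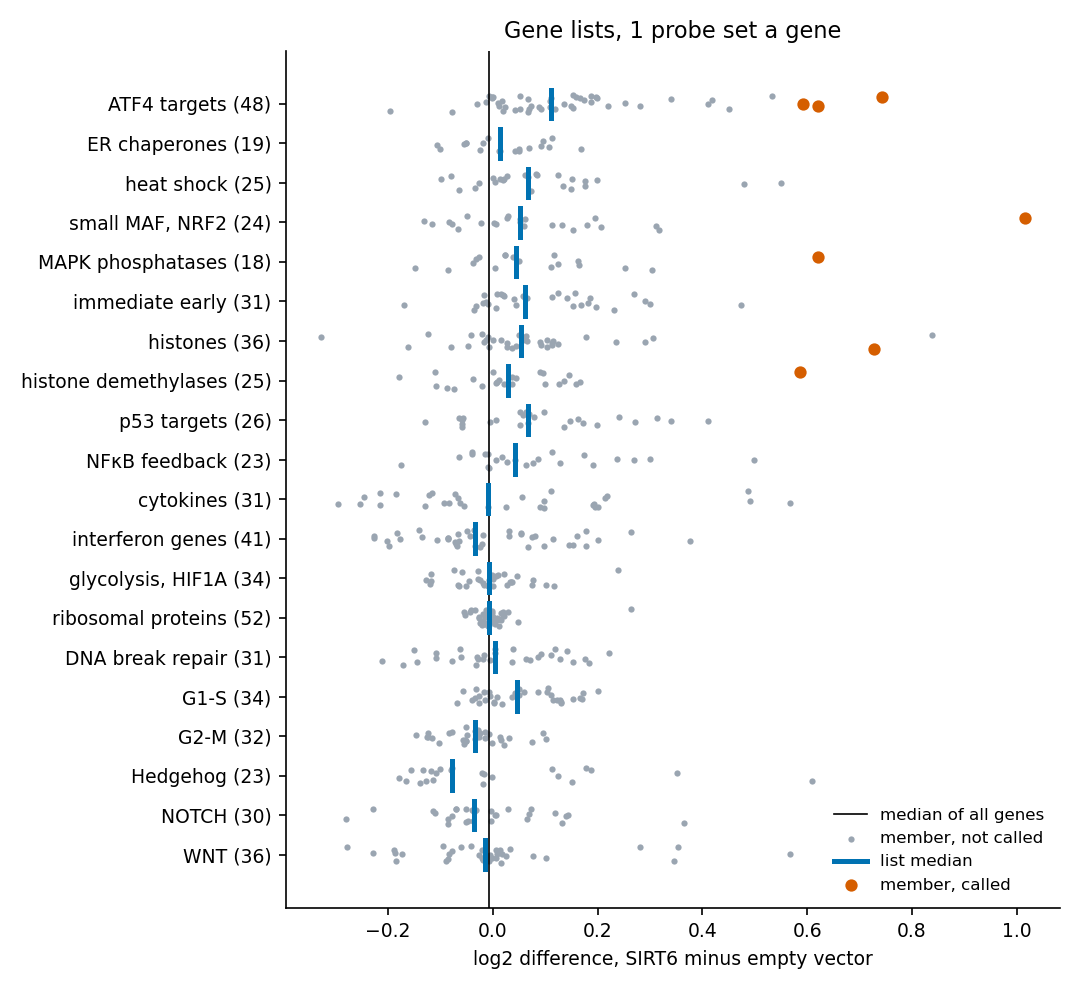
Log2 differences between SIRT6 and empty vector cells (x axis) of the members of 20 gene lists (rows, with the number measured), 1 probe set a gene. Points are genes, orange where called, blue bars are list medians and the black line is the median of all genes. The ATF4 list has the highest median, 0.11, and 3 of its genes were called.

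Transcripts that TNFα itself changes were taken from the no-DNA arrays. Their values do not enter the resting differences, though the variance of the fit was shared. TNFα raised 329 probe sets there and lowered 95. Of the 329, 3 were called higher with SIRT6, beside 0.0348% of all probe sets, both probe sets of PPP1R15A and 1 of DUSP8, and the median was 0.04, with 60.5% above 0 against 48.8% of all probe sets. Of the 95, 0 were called, with a median of −0.02.

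The same plasmids were compared again in cells given TNFα, on 6 arrays whose values do not enter the resting differences. Both comparisons took their variance from the fit to all 24 arrays, so their p-values and calls are not independent. Fitted on the arrays of each comparison alone, they shared 1 call. In the fit to 24 arrays, 33 probe sets were called higher with TNFα (0.0604%) and 5 lower. By adjusted p alone 67 were higher (0.123%) and 7 lower. All 19 resting calls were higher with TNFα too, 13 of them at an adjusted p under 0.05, and 9 were called. The 9 are 47.4% of the resting calls and 27.3% of the 33. On 18 of the 19 the 3 SIRT6 arrays again lay above the 3 empty vector arrays, against 9.38% of all probe sets. The median difference of the 19 was 0.70 at rest and 0.57 with TNFα, that of all probe sets −0.0031 and −0.0041. MAFF was at 5.92, 6.00 and 6.05 with the empty vector and at 7.46, 7.38 and 7.55 with SIRT6 (log2 1.47, adjusted p = 0.000134), and its second probe set then passed as well (log2 1.0, adjusted p = 0.00347). CHAC1 (0.89), PHF21B (0.87), PVT1 (0.85), DUSP8 (0.82 and 0.60), PSPC1 (0.79) and H2AC6 (0.68) were called again, as was 1 probe set of several genes.

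With TNFα, 4 of the 14 genes did not pass on the probe set called at rest, nor did the second probe set of PPP1R15A or 1 of those of several genes. NFAT5 lay at 4.25, 4.55 and 4.64 with the empty vector and at 4.24, 4.49 and 4.81 with SIRT6, a difference of 0.03 (adjusted p = 0.999), and its groups overlapped. LINC01554, SKIL and DTNA differed by 0.51, 0.40 and 0.32 (adjusted p = 0.179, 0.58 and 0.525). The interaction, which tests whether the effect of SIRT6 differs without and with TNFα, passed for 0 probe sets (0%). Its smallest adjusted p was 0.99995. Of 54675 probe sets 1096 had an unadjusted p under 0.05, which many would have where nothing differs. Among the 19, 5 had an unadjusted p under 0.05: NFAT5 (0.00112), DTNA (0.0217), LINC01554 (0.0222), SKIL (0.0331) and MAFF (0.0416). MAFF differed more with TNFα, and the other 4 differed less. The interaction contains the resting difference by which the 19 were chosen. That choice favours smaller differences with TNFα, so the unadjusted p-values of the 4 that differed less show no dependence on TNFα. MAFF went the other way, but its interaction did not pass after adjustment, so it shows no dependence either. All 20 probe sets below the resting fold threshold were higher with TNFα, 12 of them at an adjusted p under 0.05, among them CTH, CRYAB, DTL and SNHG17. In the other direction, 32 of the 33 probe sets called higher with TNFα were higher at rest, with a median of 0.51. DDIT3 was among the 33, at 0.60 with TNFα (adjusted p = 0.0472). All 5 probe sets called lower with TNFα were lower at rest. Of all probe sets 48.8% were higher at rest.

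**Figure D4:**
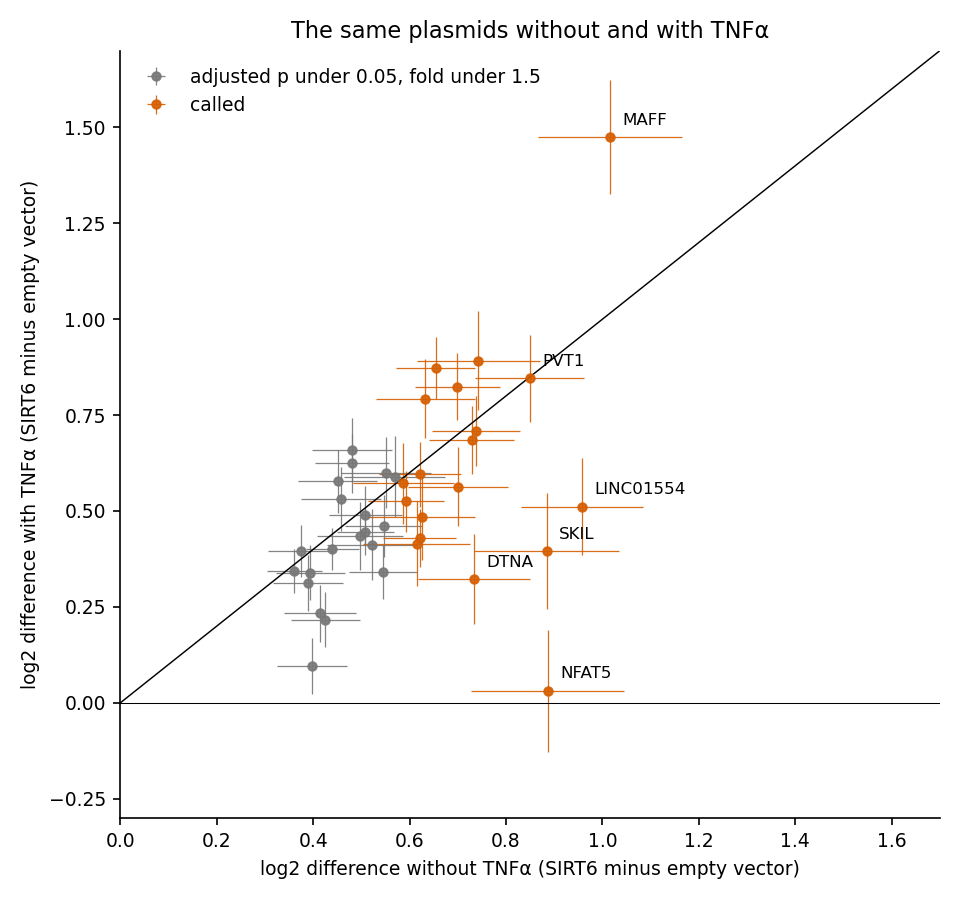
Log2 differences between SIRT6 and empty vector cells without TNFα (x axis) and with TNFα (y axis) for the 39 probe sets with an adjusted p under 0.05 at rest, called ones in orange. Bars are SEs of the fit and the line marks equal differences. All points lie above 0 on the y axis, and NFAT5, at 0.03, is the lowest.

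The 19 probe sets were also read in resting cells given the H133W mutant and in no-DNA cells. The H133W difference from the empty vector shares its control arrays with the SIRT6 difference, so the values are only set side by side. H133W was called against the empty vector on 17 of the 19 (0.702% of all probe sets were called higher), LINC01554 and DTNA being the exceptions, and the differences were 1.77 for PHF21B, 1.65 for H2AC6, 1.52 for MAFF, 1.46 for PVT1, 1.10 for ATF3 and 1.08 for CHAC1. CRYAB, below the fold threshold with SIRT6 at 0.48, differed by 3.78 with H133W. Tested directly, 8 of the 19 were called higher in H133W than in SIRT6 cells (0.106% of all probe sets) and 0 lower. They were PHF21B (1.11), H2AC6 (0.92), PVT1 (0.62), PSPC1 (0.59), both probe sets of PPP1R15A (0.59 and 0.69) and both probe sets of several genes (0.73 and 0.82). ATF3 was higher by 0.51 (adjusted p = 0.00286), below the fold threshold. The difference between the SIRT6 proteins did not pass for MAFF (0.50, SE 0.15, adjusted p = 0.211), CHAC1 (0.34, adjusted p = 0.4), DUSP8 (0.37 and 0.25) and KDM6B (0.42 and 0.45). LINC01554 (−0.42, adjusted p = 0.22), DTNA (−0.26) and SKIL (−0.21) were lower in H133W cells and did not pass either.

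Some of these transcripts were also higher with the empty vector than in no-DNA cells, a comparison that shares the empty vector arrays. The empty vector mean lay above the no-DNA mean on 15 of the 19, 6 at an adjusted p under 0.05 (0.214% of all probe sets) and 2 called (0.0914%), CHAC1 (1.06, adjusted p = 0.000756) and PHF21B (0.80, adjusted p = 0.000163). Of all 19775 genes, read on the brightest probe set, 10001 were higher with the empty vector. The means of CHAC1 ran from 5.99 in no-DNA cells over 7.05 and 7.80 to 8.14 with H133W. On 15 of the 19 the means rose in the order no DNA, empty vector, SIRT6, H133W, as they did on 9.21% of all probe sets. For the 19, the step from the empty vector to SIRT6 is fixed by their choice, and the steps beside it share its arrays. The exceptions were NFAT5, SKIL, DTNA and LINC01554, whose empty vector mean lay below the no-DNA one, by 0.68, 0.51, 0.27 and 0.11, and none of these 4 differences passed. Against no-DNA cells 16 of the 19 were called higher with SIRT6 (0.357% of all probe sets), while NFAT5, with means of 4.46 and 4.67, SKIL, with 6.46 and 6.83, and DTNA, with 4.72 and 5.18, were not.

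**Figure D5:**
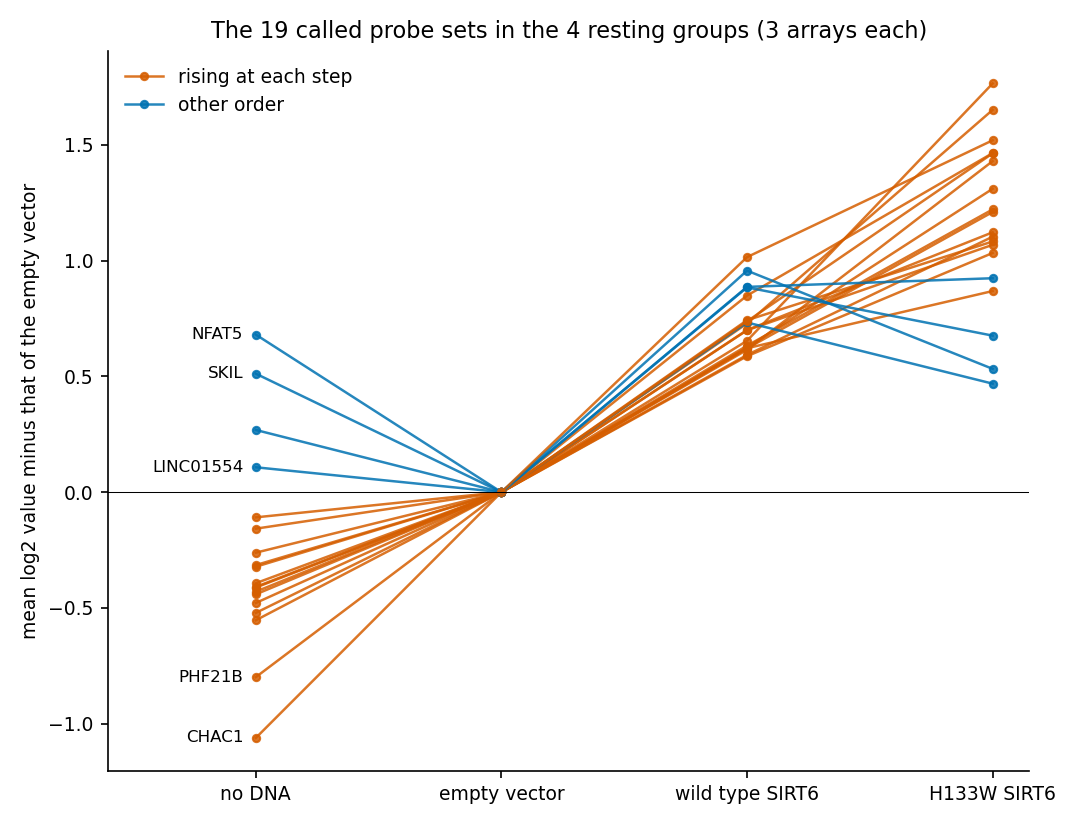
Mean log2 values (3 arrays each) of the 19 called probe sets in the 4 resting groups, drawn as differences from the empty vector mean (y axis). In orange are the 15 probe sets that rise from no-DNA cells over the empty vector and SIRT6 to H133W, in blue the other 4. Of all probe sets 9.21% rise in this order. The groups share no array with each other, but the zero line is the same 3 empty vector arrays throughout.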

How the data were processed

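RNA of 24 cultures was read on Affymetrix HG-U133 Plus 2.0 arrays. Per the labels and the study's methods, the authors made the deposited log2 values by robust multi-array averaging, which equalises the distributions of the arrays, so a shift shared by most transcripts cannot be seen. No filter was stated. Probe sets were named from the platform's gene table. Of 54675, 41097 read a single gene, 1801 read several and 11777 were unnamed.

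The groups came from the sample titles. The titles call the no-DNA cells control cells, and the treatment protocol gives their lack of DNA. The members and gene lists were chosen with earlier results of these data known. A model of 8 group means was fitted to 24 arrays with limma (version 3.58.1, R 4.3.3), with moderated variances on 16 residual degrees of freedom. P-values were adjusted over all probe sets by the method of Benjamini and Hochberg, and the thresholds were those of the study's methods. The precision is limited by 3 arrays a group, and p-values measure the spread between cultures.

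Named were the called single-gene probe sets, those of the smallest p below the fold threshold and on the lower side, those called with TNFα, the sirtuins and, of each list, up to 4 called members or the 2 of the largest difference. The last of the genes below the fold threshold, the marker genes and a few values of other probe sets were added after their values were seen. Alternatives were a plain linear model, other variance and scaling settings, array weights, a replicate block and leaving out arrays. The data table holds no columns of other comparisons.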

Additional observations from a re-analysis of the deposited data

How the results depend on the processing

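The differences of the 19 called probe sets were positive under every alternative that read them. Only a change of scaling could have turned them, since the SIRT6 arrays lay above the empty vector arrays on all 19. Of the 19, all were kept with a variance trend, 18 after renewed quantile normalization, 17 after median centring and 17 with array weights. With no fold threshold the numbers called were 39 for SIRT6, 67 higher with TNFα, 25 of the resting calls with TNFα and 234 for H133W against SIRT6 (main value 65). Array weights gave 29, 67 higher and 69 lower with TNFα (main value 5 lower), and 128 for H133W. The arrays of a comparison alone gave 1 for SIRT6, 1 lower with TNFα and 1 resting call with TNFα. Lower calls with TNFα were 2 without dim probe sets, 3 in the plain model and 8 with a variance trend. Leaving out each array in turn gave 8 to 20 higher and 0 to 1 lower for SIRT6, 14 to 22 higher and 0 to 3 lower with TNFα, 5 to 12 resting calls with TNFα, and 40 to 55 for H133W. The interaction stayed at 0 in all of these fits.

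After seeing the data, the 3 arrays of lowest weight were left out, empty vector replicate 2, no-DNA replicate 2 and H133W with TNFα replicate 3. This gave 38 higher and 5 lower for SIRT6, 58 higher and 19 lower with TNFα, 19 resting calls with TNFα and 109 for H133W. Of the 19 calls 16 were kept, and NFAT5 (adjusted p = 0.0643) and both KDM6B probe sets (0.57 and 0.55) were not. The fit with the replicate number as a block called 19, of which 17 were among the original calls, PPP1R15A (adjusted p = 0.0582) and 1 probe set of several genes being lost. Deviations of SIRT6 and empty vector arrays of the same number correlated at −0.10, 0.22 and 0.01, so the numbers were not taken as pairs. Differences near 0 of 4 other probe sets turned sign when 1 array was left out. They ranged from −0.0878 to 0.212 for DTNA, from −0.0092 to 0.0639 for NFAT5, from −0.0184 to 0.0621 for PSPC1 (−0.0126 without the 3 arrays) and from −0.00818 to 0.119 for SIRT6. With the mean over all probe sets of a gene, the medians of 8 of 34 lists moved by more than the spread between replicates, at most by 0.0762. They became 0.0862 for G1-S, 0.0313 for paraspeckles, 0.0599 for histones, 0.0144 for DNA break repair and −0.0191 for Hedgehog, and turned sign to 0.0012 for NOTCH, −0.0088 for RNA polymerase I and −0.0025 for the fibroblast and endothelium markers. The cause of these shifts was not tested.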
